A study of Mus musculus with 12 samples.

Results

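The macrophage and myeloid genes comprised 35 genes chosen by name, of 54232 genes in the count table, and were measured in SVR angiosarcoma tumors treated with a MEK inhibitor, a VEGF receptor inhibitor or both. Of the 35 genes, 27 passed the filter on low counts and were tested among 12897 genes. The other 8 (Ly86, Marco, Clec7a, Fcgr3, Tyrobp, Trem2, Cx3cr1 and Cd86) had between 4 and 58 counts in total over 12 tumors and are given as counts. With the combination, 26 of the 27 tested genes lay below control, where 49.9% of all genes did. Cd68, Fcgr1 and Siglec1 passed the threshold for a call, where 3.61% of all genes were called and 1.71% were called lower. Below control were 24 with scaling by library totals alone and 18 with an epidermal score in the model. That score, the mean log2 CPM of 11 epidermal genes, was higher in every combination tumor than in every control tumor. With it, 0 of the 27 genes were called and their median log2 fold change was -0.35 in place of -0.85. The number of all genes called with that score is not given here. The pan-leukocyte gene Ptprc and the lineage factor Spi1 did not pass, and Cd14 was the 1 gene above control.

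SVR is a mouse endothelial line that forms angiosarcoma and carries the strain label C57BL/6. The cells were grown under the skin of nude mice 8 to 12 weeks old, and treatment by daily gavage began once tumors had established for 3 to 7 days. Groups of 3 tumors received vehicle (control), the MEK inhibitor trametinib at 1 mg/kg, the VEGF receptor inhibitor cediranib at 3 mg/kg, or trametinib at 1 mg/kg with cediranib at 3 mg/kg (combination). The labels say that dosing lasted until a tumor ulcerated or outgrew its size limit, while the study also harvested tumors after a fixed time, and which of these applies here is not given. The time on treatment can therefore differ between groups. Nude mice lack a thymus and so most T cells but have monocytes and macrophages. All tumors derive from 1 cell line, and tumor, stroma, leukocytes and skin are all of mouse origin. The RNA is from whole tumors and was enriched with exome capture probes, in a kit designed for human transcripts, so probes and RNA both set the level of a gene. By the study's methods every mouse was injected in the flank, so the tumors of a group were taken as separate mice, and p-values measure the spread between these 12 samples.

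Macrophages arise from monocytes of the blood or from cells seeded in tissues before birth, and their survival depends on the receptor CSF1R with its ligands CSF1 and IL-34. The transcription factor PU.1, encoded by Spi1, sets up the myeloid program by binding purine-rich boxes in promoters and enhancers of genes such as Csf1r and Fcgr1. Tumor macrophages take up debris through scavenger and lectin receptors, bind opsonized targets through C1q and Fc receptors, and in many tumors gather around vessels.

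PU.1-type boxes (GAGGAA, or TTCCTC on the other strand) were searched in the 250 bases before each RefSeq start in GRCm38.p6. Of 26 member genes with a promoter sequence, 14 (53.8%) held the box, compared to 6986 of 27025 genes (25.85%). The match describes the sequence and is no measure of binding. Promoters are shown for Cd68 and Fcgr1, which were called, and for Mrc1 and Hcls1, which passed the FDR alone. Each is written 5′ to 3′ along the strand of its gene, and capitals mark the boxes. The Cd68 window is chr11:69666171-69666420 on the minus strand and holds 1 box. Fcgr1 has 1 box in reverse orientation in chr3:96293970-96294219 on the minus strand. Mrc1 has 3 boxes in reverse orientation in chr2:14229164-14229413 on the plus strand. The Hcls1 window, chr16:36934733-36934982 on the plus strand, holds none in these letters.
Cd68: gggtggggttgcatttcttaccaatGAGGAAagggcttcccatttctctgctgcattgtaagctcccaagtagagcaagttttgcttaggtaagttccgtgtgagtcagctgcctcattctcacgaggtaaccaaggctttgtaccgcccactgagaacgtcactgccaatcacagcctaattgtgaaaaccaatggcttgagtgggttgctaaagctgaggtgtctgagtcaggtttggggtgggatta
Fcgr1: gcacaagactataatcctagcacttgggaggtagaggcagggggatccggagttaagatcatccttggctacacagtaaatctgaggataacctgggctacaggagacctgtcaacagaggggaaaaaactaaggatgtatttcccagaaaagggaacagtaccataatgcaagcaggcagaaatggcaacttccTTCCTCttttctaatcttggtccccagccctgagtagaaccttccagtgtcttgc
Mrc1: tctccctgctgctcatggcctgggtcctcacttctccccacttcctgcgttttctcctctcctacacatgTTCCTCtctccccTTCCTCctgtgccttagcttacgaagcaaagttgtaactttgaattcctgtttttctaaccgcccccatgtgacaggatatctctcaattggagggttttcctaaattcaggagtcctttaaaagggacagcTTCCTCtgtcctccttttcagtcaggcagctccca
Hcls1: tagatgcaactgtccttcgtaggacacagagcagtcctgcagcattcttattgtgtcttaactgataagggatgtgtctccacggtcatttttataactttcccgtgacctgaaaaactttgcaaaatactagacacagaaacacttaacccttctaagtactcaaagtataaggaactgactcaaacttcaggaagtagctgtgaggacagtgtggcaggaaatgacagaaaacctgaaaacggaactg

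Libraries held 9478865 to 11666094 counts. Levels are given as CPM, read counts scaled to the size of each library with TMM factors, and a count of 3, the limit that a count of 0 allows, is 0.251 to 0.349 CPM for counting error only. A gene was called when its false discovery rate (FDR, Benjamini-Hochberg over all genes tested) in the quasi-likelihood test of edgeR was under 0.05 and its log2 fold change was 1.5 or more in either direction. Genes that met the FDR without the fold minimum are described as passing the FDR alone. Some tumors stood apart in tissue content. Skeletal muscle genes summed to 16692 CPM in control replicate 2 and 23939 CPM in trametinib replicate 2, against 17.4 to 2038 CPM in the others. Epidermal genes were high in cediranib replicates 1 and 3 and in all 3 combination tumors, as given with the marker lists.

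The 2 defining markers were present in every tumor. Cd68, which encodes a lysosomal glycoprotein of macrophages, had 1.21 to 5.59 CPM, and Csf1r, the receptor for CSF1 and IL-34, had 42.0 to 151 CPM. Other myeloid genes were close to the counting limit in the same libraries. Tyrobp, the adaptor of many myeloid receptors, had 0 to 12 counts in a library, Trem2 had 0 to 4, and the fractalkine receptor Cx3cr1 had 0 to 7. Per kilobase of gene model, the mean level over 12 tumors was 38.0 CPM for Mrc1, 21.2 for Hcls1, 18.4 for Lyz2 and 17.8 for Csf1r. On the same CPM per kilobase scale it was 2.79 for Cd68, 2.30 for C1qb, 1.15 for Fcer1g, 0.699 for Tyrobp and 0.0239 for Cx3cr1. Csf1r shares 15.1% of its annotated exonic bases with Hmgxb3 on the opposite strand, and the strand setting of the counting is not given. Mrc1 is also made by some endothelial cells, so its level is not particular to macrophages.

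Summed over the 35 genes, control tumors had 566 to 919 CPM, trametinib treated tumors 427 to 610 CPM, cediranib treated tumors 419 to 669 CPM and combination treated tumors 285 to 467 CPM. The highest combination sum was thus below the lowest control sum, while it overlapped the other 2 groups. Mrc1 contributes most to these sums. Of the combination tumors, replicate 3 lay below the 12-tumor mean for 26 of the 27 tested genes and was lowest of all tumors for 10. Replicates 1 and 2 lay below the mean for 23 and 17 genes and were lowest for 5 and 0, while trametinib replicate 1 was lowest for 6. Control replicate 2 and trametinib replicate 2, the tumors high in skeletal muscle genes, were highest of all tumors for 9 and 6 genes. Combination replicate 2 was highest for 2. Control replicates 2 and 3 lay below it for 2 and 3 genes, while control replicate 1 did so for 13. Cediranib replicates 1 to 3 had 8, 1 and 19 genes below the mean, and the trametinib replicates had 19, 6 and 13. Within each of the single-agent groups, tumors therefore differed in the direction of most of these genes. In bulk RNA, fewer cells of a type and less RNA per cell cannot be told apart.

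**Figure D1:**
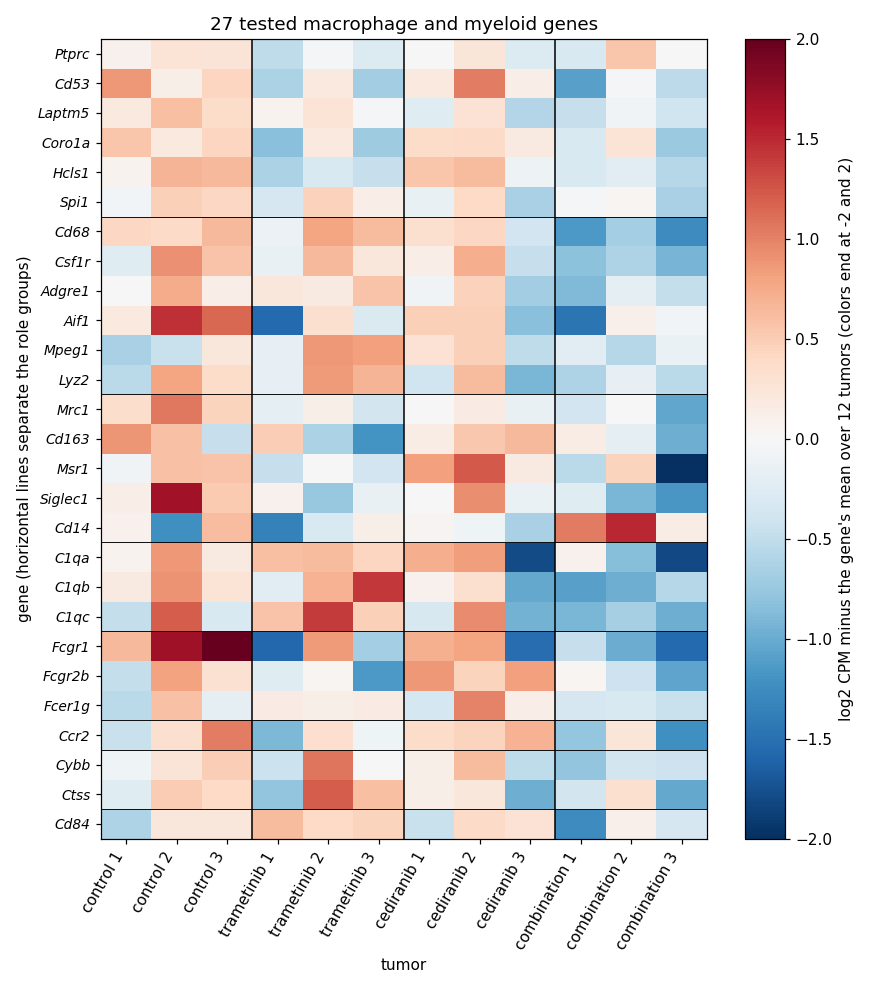
Each row is a tested gene and each column a tumor, and color gives log2 CPM minus the mean of that gene over 12 tumors. Combination replicate 3 is below the mean for 26 of 27 genes and control replicate 2 for 2, and cediranib replicate 3 is below it for 19.

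Combination compared to control asks what both drugs together did to these transcripts. The median log2 fold change of the 27 genes was -0.85, against 0.0015 for all 12897 genes. With scaling by library totals alone, which moved the median of all genes to 0.13, 24 of the 27 genes lay below 0 and Mpeg1 and Ptprc lay above it. Called were 3 genes, all lower, where 3.61% of all genes were called and 1.71% were called lower. Past the FDR alone were 6, again all lower, where the background was 9.98% in either direction and 5.13% lower. At an unadjusted p under 0.05 there were 11 members (40.7%), compared to 27.2% of all genes. For 13 of the 27 genes all combination values lay below all control values, compared to 15.7% of all genes, and for 0 genes did they all lie above, compared to 15.6%.

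Of 7 macrophage identity genes 6 were tested, and all 6 lay below control with a median of -1.06, where 49.9% of all genes lay below. The FDR was passed by 2, where 5.13% of all genes passed lower. Cd68 (chromosome 11, 69664213 to 69666153) had 4.26, 4.16 and 5.05 CPM in control and 1.31, 1.91 and 1.21 CPM in combination treated tumors. With trametinib it had 2.91, 5.59 and 5.02 CPM, and with cediranib 4.0, 4.26 and 2.39 CPM. The combination values lay below all 9 other tumors. Cd68 was 3.02-fold lower than in control, a log2 fold change of -1.59 (FDR 0.0127 from edgeR, standard error 0.33). Without combination replicate 3 the change was -1.47 (FDR 0.0479), which met the FDR but not the fold minimum, and with library totals alone it was -1.46 (FDR 0.0163).

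Csf1r (chromosome 18, 61105572 to 61131134) had 67.7, 151 and 119 CPM in control, 72, 126 and 93.3 CPM with trametinib and 87.8, 133 and 57.9 CPM with cediranib. In combination treated tumors it had 45.1, 51.8 and 42.0 CPM, again below all other tumors. Csf1r varied more among control tumors (113 ± 41.9 CPM, SD, n = 3) than among combination tumors (46.3 ± 5.01 CPM). The log2 fold change against control was -1.28 (FDR 0.0311 from edgeR, standard error 0.33), which passed the FDR alone. Leaving out control replicate 1 gave -1.55 (FDR 0.0131), a call. Leaving out any other of the 6 libraries raised the FDR above 0.05, to 0.112 without control replicate 2.

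The other identity genes passed no threshold with the combination. Adgre1, which encodes F4/80, had a log2 fold change of -0.84 (FDR 0.124), with 4.60 to 7.80 CPM in control and 2.42 to 3.99 CPM with the combination. Aif1, the actin-binding protein IBA1, had -1.5 (FDR 0.162) and was also low with trametinib, where it had 0.272, 1.51 and 0.921 CPM. The values for Lyz2, lysozyme M, were -0.74 (FDR 0.279) for the combination and 0.22 for trametinib. Lyz2 shares 15.4% of its 50-base windows with Lyz1, so its counts are uncertain. Mpeg1, the pore-forming perforin-2 of phagocytes, had -0.06 against control, and 0.91 with trametinib (FDR 0.268). Ly86, which encodes MD-1, had 0, 0 and 0 counts in control and 5 counts over all 12 tumors.

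**Figure D2:**
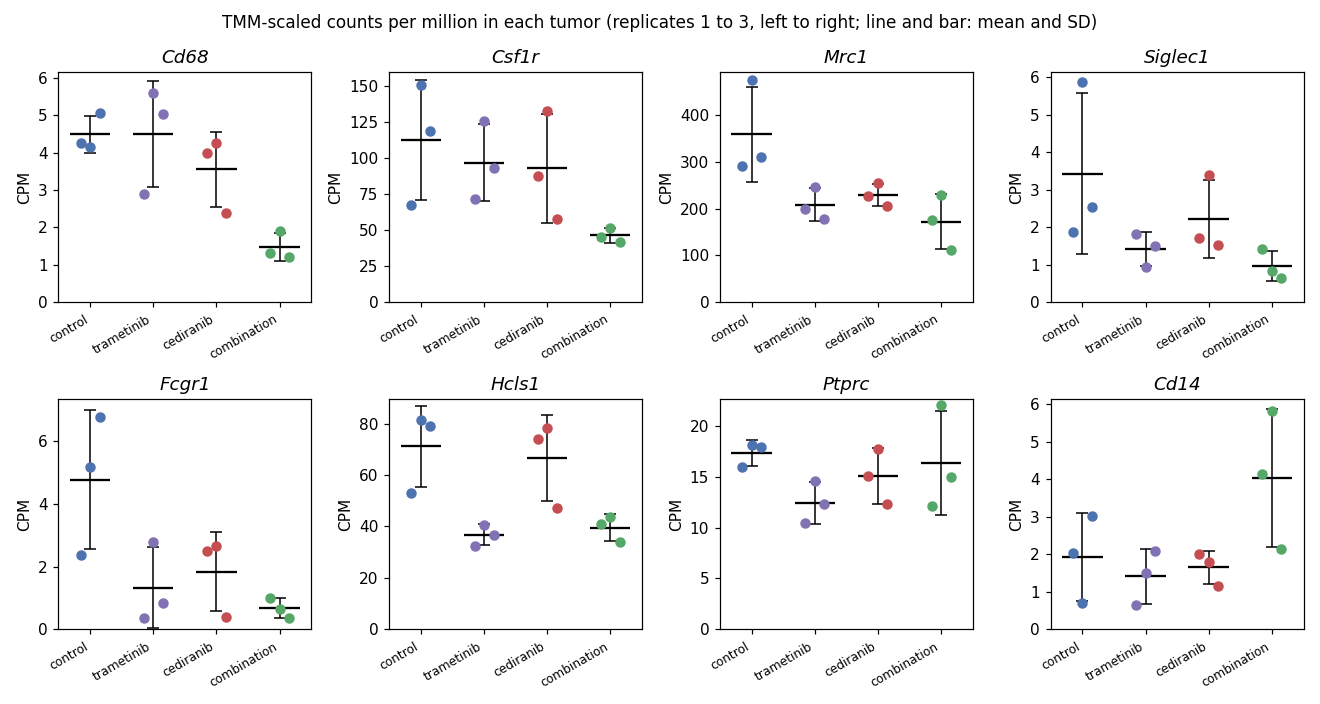
Points are CPM of 8 genes in each of 12 tumors, in replicate order from left to right, and the line and bar are the mean and SD of a group (n = 3); every axis starts at 0. The 3 combination points of Cd68 (1.21 to 1.91) and Csf1r (42.0 to 51.8) lie below all other points, while those of Ptprc (12.1 to 22.1) span the control points.

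Of 7 scavenger and lectin receptors 5 were tested, and 4 lay below control with the combination, with a median of -0.98. Past the FDR were 2, where 5.13% of all genes passed lower. Siglec1 (chromosome 2, 131069220 to 131086765), the sialic acid receptor sialoadhesin of resident macrophages, had 1.87, 5.88 and 2.53 CPM in control. With the combination it had 1.41, 0.817 and 0.650 CPM, with trametinib 1.82, 0.931 and 1.51 CPM, and with cediranib 1.70, 3.40 and 1.53 CPM. Every combination value lay below every control value, although the gap to the lowest control tumor was small. Against control the log2 fold change was -1.82 (FDR 0.0473 from edgeR, standard error 0.52). Control replicate 2 held the highest value, and without it the change was -1.19 (FDR 0.195). The call was also lost without control replicate 3 (FDR 0.0813) or combination replicate 1 (0.0631), 2 (0.13) or 3 (0.14).

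Mrc1 (chromosome 2, 14229392 to 14332057), the mannose receptor CD206, had 291, 474 and 311 CPM in control. It had 200, 247 and 178 CPM with trametinib, 227, 254 and 206 CPM with cediranib and 176, 229 and 111 CPM with the combination. All 9 treated tumors lay below all 3 controls. With the combination the log2 fold change was -1.06 (FDR 0.0234 from edgeR, standard error 0.25), past the FDR alone. It was -0.81 (FDR 0.089) without control replicate 2, and the FDR was also above 0.05 without combination replicate 1 (0.0631) or 3 (0.0603). For trametinib it was -0.78 (FDR 0.0919) and for cediranib -0.65 (FDR 0.999), so the single agents did not pass.

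Cd14, the co-receptor for bacterial lipopolysaccharide on monocytes, had 2.04, 0.709 and 3.03 CPM in control and 4.14, 5.81 and 2.13 CPM with the combination. It had 0.635, 1.51 and 2.09 CPM with trametinib and 2.00, 1.8 and 1.15 CPM with cediranib. The combination values lay above all tumors of both single agents but overlapped control. Its log2 fold change was 1.06 against control (FDR 0.23), 1.5 against trametinib (FDR 0.183) and 1.29 against cediranib (FDR 0.18). None passed in edgeR with the filter on low counts, while without that filter Cd14 was called for combination against trametinib. The hemoglobin scavenger receptor Cd163 had -0.73 with the combination (FDR 0.332), with 4.85 to 12.6 CPM in control. The scavenger receptor Msr1, at 0.766 to 1.32 CPM in control, had -0.98 (FDR 0.439), and combination replicate 3 had 0 CPM. Marco, a scavenger receptor, had 4 counts in all, and Clec7a, the β-glucan receptor dectin-1, had 10.

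The C1q subunits, whose 3 genes lie side by side on chromosome 4, form the recognition molecule of the classical complement pathway and are made mostly by macrophages. C1qb had 2.47, 4.16 and 2.63 CPM in control, 1.82, 3.61 and 6.03 CPM with trametinib, 2.30, 2.74 and 0.957 CPM with cediranib and 0.909, 0.999 and 1.39 CPM with the combination. Combination values lay below all control and trametinib values. With the combination the log2 fold changes were -1.28 for C1qa, -1.47 for C1qb and -1.71 for C1qc (FDR 0.288, 0.0805 and 0.209). Compared to trametinib they were -1.44, -1.79 and -2.32 (FDR 0.329, 0.0927 and 0.165). None of these passed in edgeR's test with the filter on low counts. C1qc had 0.186 to 0.272 CPM in the combination tumors, which is within the limit of a count of 3. The DESeq2 Wald test, an alternative, called C1qb lower for combination against trametinib, and edgeR without the filter called it there too.

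Fcgr1 (chromosome 3, 96282909 to 96293969), the high-affinity receptor for IgG, had 2.38, 5.17 and 6.77 CPM in control. With trametinib it had 0.363, 2.79 and 0.837 CPM, with cediranib 2.5, 2.65 and 0.383 CPM, and with the combination 1.01, 0.635 and 0.371 CPM. Control replicate 1 lay within the range of the single agents, while the combination tumors lay below all controls. The log2 fold change with the combination was -2.81 (FDR 0.0427 from edgeR, standard error 0.79), the lowest of the 27 genes. Values of -1.88 with trametinib (FDR 0.172) and -1.36 with cediranib (FDR 0.999) did not pass. Without the filter on low counts Fcgr1 was called for trametinib against control. The combination call was lost without control replicate 2 (FDR 0.0998) or 3 (0.136) or combination replicate 1 (0.0792), 2 (0.116) or 3 (0.129). The estimates then lay between -3.21 and -2.48.

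The remaining Fc receptor and adaptor genes were near the counting limit. Fcer1g, the γ chain that carries Fcgr1 signals, had 0.596 to 1.52 CPM in control and 0.650 to 0.726 CPM with the combination, a log2 fold change of -0.47 (FDR 0.59). The inhibitory receptor Fcgr2b had -0.88 (FDR 0.351), and Fcgr2b and Fcgr3 share 50-base windows with each other (7.12% and 12.8%), so both are uncertain. Fcgr3, a low-affinity activating receptor, had 6, 9 and 3 counts in control, 0, 3 and 1 with trametinib, 4, 6 and 1 with cediranib and 2, 1 and 1 with the combination. Tyrobp had 6, 2 and 10 counts in control and 3, 2 and 3 with the combination. Trem2, a lipid receptor that signals through Tyrobp, had 16 counts in all. These counts are too low for a comparison between groups.

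All 6 pan-leukocyte and lineage genes were tested and lay below control with the combination, with a median of -0.66. Past the FDR was 1, where 5.13% of all genes passed lower. Ptprc (chromosome 1, 138062861 to 138175708), the CD45 phosphatase of all leukocytes, had 15.9, 18.1 and 18.0 CPM in control, 10.4, 14.5 and 12.3 CPM with trametinib, 15.1, 17.8 and 12.3 CPM with cediranib and 12.1, 22.1 and 14.9 CPM with the combination. Combination replicate 2 had the highest value of all tumors, and the combination overlapped every other group, while all trametinib values lay below all control values. The log2 fold change with the combination was -0.08 (FDR 0.856, standard error 0.23), and it became 0.09 without combination replicate 1 and 0.05 with library totals alone. Spi1 had -0.48 (FDR 0.32), with 19.0 to 27.6 CPM in control and 12.5 to 20.4 CPM with the combination. Laptm5, a lysosomal membrane protein of leukocytes, had -0.69 (FDR 0.0614), and the tetraspanin Cd53 had -1.02 (FDR 0.0959). For both, all combination values lay below all control values. Coro1a, an actin regulator of leukocytes, had -0.62 (FDR 0.225).

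Hcls1 (chromosome 16, 36934983 to 36963212), an actin regulator of blood cells that SRC-family kinases phosphorylate, was the pan-leukocyte gene that passed. It had 53.1, 81.3 and 79.0 CPM in control and 74.1, 78.3 and 47.3 CPM with cediranib. With trametinib it had 32.6, 40.7 and 36.8 CPM, and with the combination 41.0, 43.8 and 33.9 CPM. All 6 tumors given trametinib lay below the 6 tumors without it. Log2 fold changes were -0.95 for trametinib against control (FDR 0.0201, standard error 0.21), -0.86 for trametinib against cediranib (FDR 0.0279, standard error 0.21) and -0.85 for combination against control (FDR 0.0284, standard error 0.21), from edgeR, all past the FDR alone. With single libraries left out, the FDR for trametinib against control stayed under 0.05 without control replicate 1 or trametinib replicate 2, and was 0.0633 to 0.0812 without any of the other 4. For trametinib against cediranib it stayed under only without cediranib replicate 3, and was otherwise 0.0538 to 0.102. For combination against control it stayed under only without control replicate 1, and was otherwise 0.0579 to 0.103.

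The chemokine receptor Ccr2, which brings monocytes into tissue, had 0.937, 1.72 and 2.93 CPM in control, 0.635, 1.75 and 1.26 CPM with trametinib, 1.8, 1.89 and 2.30 CPM with cediranib and 0.707, 1.63 and 0.464 CPM with the combination. The combination values lay below all cediranib values but overlapped the other groups, and the log2 fold change against control was -0.97 (FDR 0.283). Cx3cr1 had 1, 7 and 2 counts in control and 0, 0 and 0 with the combination, with both groups near the limit of a count of 3.

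Cybb, the catalytic subunit of the phagocyte NADPH oxidase, had 9.11, 11.7 and 13.7 CPM in control, 7.17, 20.6 and 9.80 CPM with trametinib, 10.5, 15.1 and 6.79 CPM with cediranib and 5.55, 7.44 and 7.24 CPM with the combination. The combination values lay below all controls, and the log2 fold change was -0.77 (FDR 0.221). Cathepsin S, the lysosomal protease that trims the MHC class II invariant chain and is encoded by Ctss, had -0.53 (FDR 0.564). Cd84, a SLAM-family receptor, had 0.426, 0.912 and 0.909 CPM in control, 1.27, 1.05 and 1.09 CPM with trametinib, 0.500, 1.04 and 0.957 CPM with cediranib and 0.202, 0.817 and 0.557 CPM with the combination. Its trametinib values were above all other tumors, with a log2 fold change of 0.61 against control (FDR 0.577), and the combination gave -0.48 (FDR 0.625). The costimulatory ligand Cd86 had 8 counts in all.

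**Figure D3:**
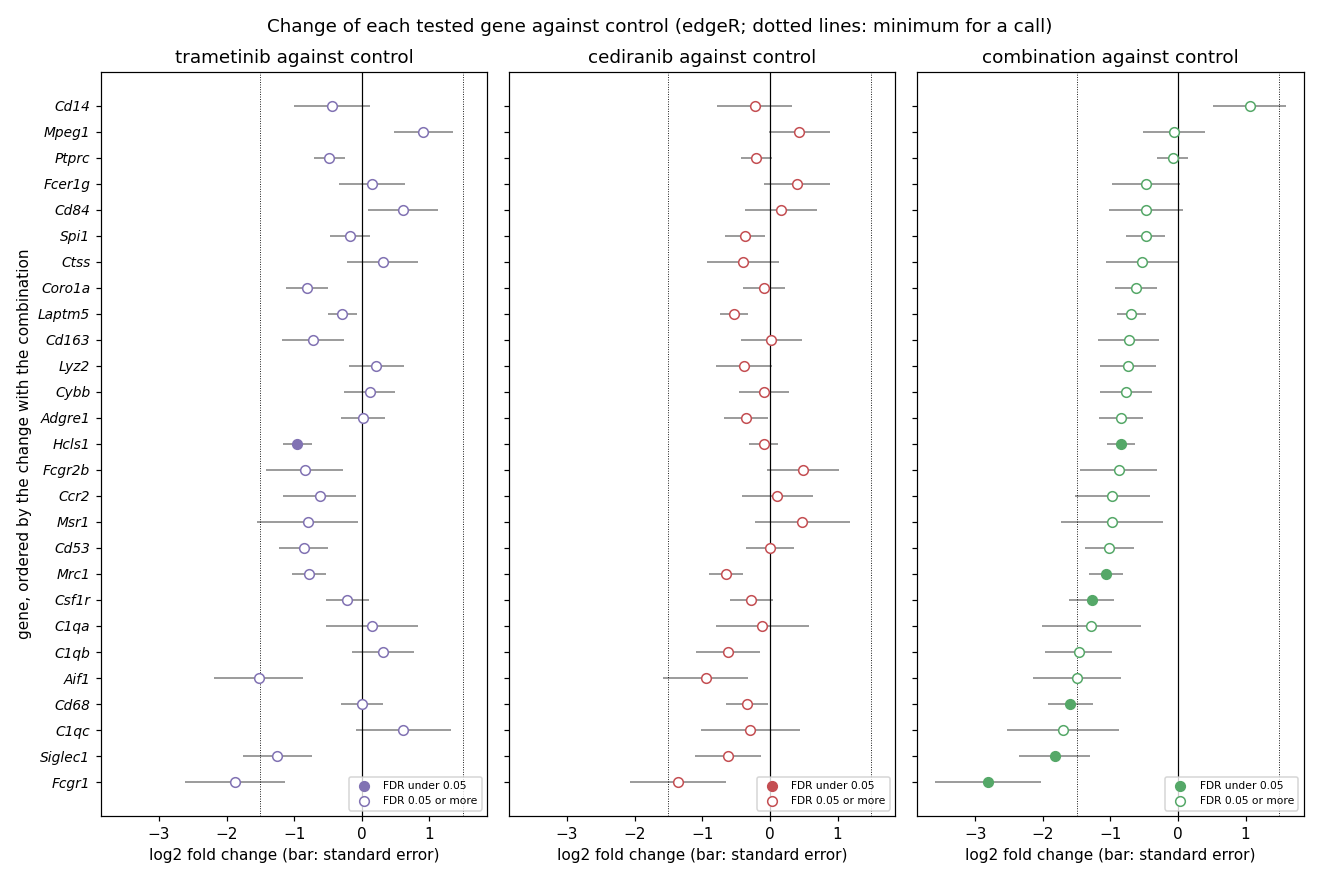
Log2 fold changes (points) with standard errors (bars) of the 27 tested genes against control, one panel per treatment; filled points have an FDR under 0.05 and dotted lines mark a log2 fold change of 1.5. Points of the combination panel lie below 0 except for Cd14, and filled points number 1 with trametinib, 0 with cediranib and 6 with the combination.

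With trametinib alone, 16 of the 27 genes lay below control, where 49.3% of all genes did. The median was -0.29, against 0.0057 for all genes. Called were 0 members in edgeR and in DESeq2, where 2.4% of all genes were called by edgeR. Past the FDR alone was Hcls1, where 6.12% of all genes passed in either direction and 3.47% passed lower. At an unadjusted p under 0.05 there were 7 members (Aif1, Cd53, Coro1a, Fcgr1, Hcls1, Mrc1 and Siglec1), or 25.9%, a share near the 20.7% of all genes. All 6 pan-leukocyte genes had values below 0, with a median of -0.65, and so did the 5 tested scavenger and lectin receptors (median -0.78). C1q subunits had a median of 0.31, and Cd68 had 0.00 (FDR 0.998, standard error 0.31).

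With cediranib alone edgeR called 0 genes of any kind (0% with or without the fold minimum), and every member had an FDR of 0.999. At an unadjusted p under 0.05 were Laptm5 (-0.53) and Mrc1 (-0.65), 7.41% of members compared to 4.32% of all genes, and DESeq2 called 0 members and 10 genes in all. The median of the 27 genes was -0.23, and for all genes it was -0.0027. Below 0 were 19 members, where 50.4% of all genes were. Cediranib replicate 3 had a median deviation of -0.46 from the 12-tumor mean, close to that of combination replicate 1 (-0.46), while replicates 1 and 2 had 0.12 and 0.48. Epidermal scores were 5.02 in replicate 1, 0.24 in replicate 2 and 4.91 in replicate 3, and their relation to these deviations was not tested.

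Combination compared to trametinib asks what cediranib added. Cd68 was called lower, with a log2 fold change of -1.60 (FDR 0.0473 from edgeR, standard error 0.33). It was the 1 member called, where 0.675% of all genes were called and 0.14% were called lower. By the FDR alone it was again the 1 member, where the background was 0.969% in either direction and 0.248% lower. Leaving out any 1 of the 6 libraries lost this call, with an FDR between 0.0578 without trametinib replicate 1 and 0.139 without trametinib replicate 2. The call was also lost with the epidermal score in the model, where Cd68 had a log2 fold change of -1.17. Every combination tumor had a score of at least 5.13, while the highest score of a trametinib tumor was -0.866. Because these scores do not overlap, that model cannot separate epidermal RNA from the treatment in this comparison. The median of the 27 genes was -0.58, against -0.0100 for all genes, and 22 lay below 0, where 51.2% of all genes did. For 9 members (Adgre1, C1qa, C1qb, C1qc, Cd68, Cd84, Csf1r, Fcer1g and Laptm5) all combination values lay below all trametinib values, compared to 11.8% of all genes. Csf1r had -1.06 (FDR 0.125), while Hcls1 had 0.11 (FDR 0.838). The comparisons of the combination share its 3 tumors, so their values are not independent of each other.

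Combination compared to cediranib asks what trametinib added. Members called were 0 in edgeR and in DESeq2, where 2.45% of all genes were called by edgeR. Past the FDR alone was Cd68, with a log2 fold change of -1.26 (FDR 0.0421 from edgeR, standard error 0.33), where 7.68% of all genes passed in either direction and 3.78% passed lower. Its FDR was above 0.05 without any 1 of the 6 libraries except cediranib replicate 3, without which it was 0.0323 (log2 fold change -1.46). At an unadjusted p under 0.05 were 7 members (25.9%), a share near the 23.1% of all genes. All combination values lay below all cediranib values for 8 members (Ccr2, Cd163, Cd53, Cd68, Csf1r, Fcgr2b, Hcls1 and Siglec1), compared to 14.3% of all genes. The median was -0.75, and 0.0043 for all genes, with 25 of 27 below 0 where 49.6% of all genes were. Csf1r had -1.0 (FDR 0.0852).

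Between the single agents, trametinib against cediranib, the members fell evenly, with 14 below 0, where 50.4% of all genes were, and a median of -0.14. Called were 0 members in edgeR and in DESeq2, where 3.49% of all genes were called by edgeR, and 4 members (14.8%) had an unadjusted p under 0.05, compared to 24.7% of all genes. Hcls1 passed the FDR alone, where 8.65% of all genes passed in either direction and 4.47% passed lower. C1qb had 0.93 (FDR 0.248) and Fcgr2b had -1.34 (FDR 0.163). The interaction contrast, which asks whether the effect of cediranib differed with trametinib present, had 0 calls among all genes (0% with or without the fold minimum) in edgeR. Its smallest FDR among members was 0.682, and DESeq2 called 0 members. Unadjusted p-values under 0.05 were those of Cd14 (1.73), Cd68 (-1.26) and Mpeg1 (-1.41), 11.1% of members compared to 7.05% of all genes.

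Other genes of the macrophage pathways were taken from 7 lists. Of the CSF1 axis and lineage factors, 9 of 10 were tested, and the smallest FDR in any comparison was 0.0824, of Cebpa for combination against cediranib (log2 fold change 1.08). The ligands Csf1 (3.53 to 8.32 CPM) and Il34 (0.0957 to 1.30 CPM) had log2 fold changes of -0.33 and 0.39 with the combination. Maf, a macrophage transcription factor, had 139 to 398 CPM over all tumors and -0.39. The median of the list with the combination was -0.25.

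ITAM signaling, in which kinases and phosphatases relay Fc receptor signals, had 13 of 14 genes tested. With trametinib, 1 gene was called lower and a further gene passed the FDR alone. Lyn, a SRC-family kinase, had 94.0, 97.4 and 78.4 CPM in control, 32.7, 24.6 and 32 CPM with trametinib, 108, 88.3 and 99.1 CPM with cediranib and 44.7, 42.9 and 50.1 CPM with the combination. All 6 trametinib-containing tumors lay below the other 6. The log2 fold change was -1.59 for trametinib against control (FDR 0.000101), -1.72 against cediranib (FDR 5.9e-05) and -0.97 for combination against control (FDR 0.0028), from edgeR. Inpp5d, the inhibitory phosphatase SHIP1, had -0.66 with trametinib (FDR 0.0308) and -0.63 with the combination (FDR 0.0287). The list had a median of -0.41 with trametinib and -0.39 with the combination.

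Of 5 NADPH oxidase partners, all tested, 1 was lower by the FDR alone with trametinib, and the median was -0.39 with trametinib and -0.33 with the combination. Among them Cyba, at 19.8 to 45.9 CPM, had a log2 fold change of -0.26 with the combination. MHC class II had 4 of 7 genes tested, and the smallest FDR was 0.133, of H2-Ab1 for trametinib against cediranib. H2-Aa, its chain with the highest mean CPM, had 19.8 to 86.9 CPM and a log2 fold change of 0.04 with the combination. Of 11 lysosomal and phagocyte genes, 10 were tested. The protease legumain, Lgmn, passed the FDR alone for the combination against control (-1.23, FDR 0.0127) and against cediranib (-1.01, FDR 0.0351), while the tetraspanin Cd63 had -0.10 against control and 116 to 175 CPM. Among Toll-like receptors and partners 4 of 11 were tested, with Myd88 lower with trametinib (-0.74, FDR 0.0472) and Cd180 lower for trametinib against cediranib (-1.21, FDR 0.0279), both by the FDR alone.

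Most genes of alternative and inflammatory activation were below the filter, with 3 of 14 tested. Il1b, the cytokine interleukin-1β, had 3.24, 1.72 and 2.42 CPM in control, 0.545, 0.233 and 0.251 CPM with trametinib, 2.20, 2.08 and 3.44 CPM with cediranib and 3.23, 6.54 and 4.18 CPM with the combination. It was called lower with trametinib against control (-2.79, FDR 0.00448) and cediranib (-2.85, FDR 0.00357) and higher for combination against trametinib (3.70, FDR 0.0196), from edgeR. The trametinib tumors were below all others. Trametinib replicates 2 and 3, with 2 and 3 counts of Il1b, were at or under the limit of a count of 3, so the size of these folds is uncertain. Folr2, a folate receptor of tissue macrophages, had 13.8 to 49.9 CPM and -0.69 with the combination, which did not pass.

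The endothelial list, which the SVR cells can also express, summed to 235 to 476 CPM in control, 107 to 169 CPM with trametinib, 141 to 374 CPM with cediranib and 76.2 to 133 CPM with the combination. Of its 9 tested genes 4 were called lower with the combination, Pecam1 (-2.93), Cdh5 (-2.37), Tie1 (-2.43) and Kdr (-2.24), and the list median was -2.24. With trametinib Pecam1, Cdh5 and Tie1 were called lower and the median was -1.90. The share of this in the values of Mrc1, Csf1r and the other member genes was not tested.

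The epidermal list summed to 2924 to 4423 CPM with the combination, 21.4 to 619 CPM in control, 4.02 to 9.99 CPM with trametinib and 44.9 to 2847 CPM with cediranib. Of 11 tested genes, Trp63, Sfn and Lor were called higher with the combination against control. For combination against trametinib 4 were called higher (list median 8.94), and for trametinib against cediranib 7 were called lower (list median -7.71). Krt14 had the highest mean CPM, and Ivl had 0 CPM in all 3 trametinib tumors. A score, the mean log2 CPM of these 11 genes, was 5.13 to 5.76 with the combination and -0.13 to 3.51 in control. With this score in the model, an alternative chosen after seeing the data, 0 members were called for combination against control. The number of all genes called in that fit is not given here. Of the 27 members 18 lay below 0 and the median was -0.35. Cd68 then had -1.32 (FDR 0.246), Fcgr1 -1.68 (FDR 0.584), Siglec1 -0.67 (FDR 0.769) and Csf1r -0.35 (FDR 0.782), from edgeR. Since the score does not overlap between these 2 groups, epidermal RNA and the treatment cannot be told apart here.

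Markers of other leukocytes were mostly below the filter. In the T cell list 1 of 10 genes was tested, Lck (2.60 to 6.35 CPM), Cd3g and Cd8b1 were at 0 in all tumors, and the sum was 3.49 to 4.05 CPM in control and 2.69 to 8.08 CPM with the combination. In the B cell list 0 of 6 genes were tested, and the sum was at most 0.606 CPM in any tumor. The NK cell list had 1 of 7 tested, Eomes (0.303 to 4.34 CPM), with Gzma and Klrb1c at 0 throughout. Dendritic and Langerhans cell genes had 1 of 9 tested, Itgax, which had a log2 fold change of -0.92 with the combination and was not called.

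Of 13 neutrophil genes 4 were tested. Mmp9, a gelatinase that other cells make too, was called lower with trametinib (-2.66, FDR 0.0497), and S100a9, a calcium-binding protein of neutrophils and activated monocytes, was called higher with the combination (3.91, FDR 0.0261). S100a9 had 0.255, 0 and 0 CPM in control and 1.21, 2.00 and 1.49 CPM with the combination, so the fold rests on control values at or under the limit of a count of 3. Only the combination tumors had 10 or more counts of S100a9. It therefore passed the filter only through the group in which it was called higher, and the call is not independent of the filter. Mast cell genes had 3 of 7 tested, and Cpa3, a mast cell protease, was called higher with the combination (3.40, FDR 0.0123), while Kit was not called. Cpa3 had 0.766, 0.101 and 0.303 CPM in control and 4.14, 2.00 and 6.96 CPM with the combination.

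The monocyte list had 3 of 6 genes tested, with Vcan, a matrix proteoglycan that fibroblasts also make, lower by the FDR alone with trametinib (-1.46) and the combination (-1.32). Fn1, also a fibroblast gene, had 0.67 with the combination, and Ly6c2 had 2 counts in all. Of 8 tested fibroblast genes Pdgfrb was called lower with the combination (-1.67), and Col3a1 and Lum were called higher for trametinib against cediranib. Col1a1 led the fibroblast list by CPM and was not called. Skeletal muscle genes, 7 of 7 tested, varied by tumor as given above, and Myh4 led them by CPM and was not called, while Des was called higher for trametinib against cediranib. In the adipocyte list 1 of 5 genes was tested, Plin1, and it was not called.

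**Figure D4:**
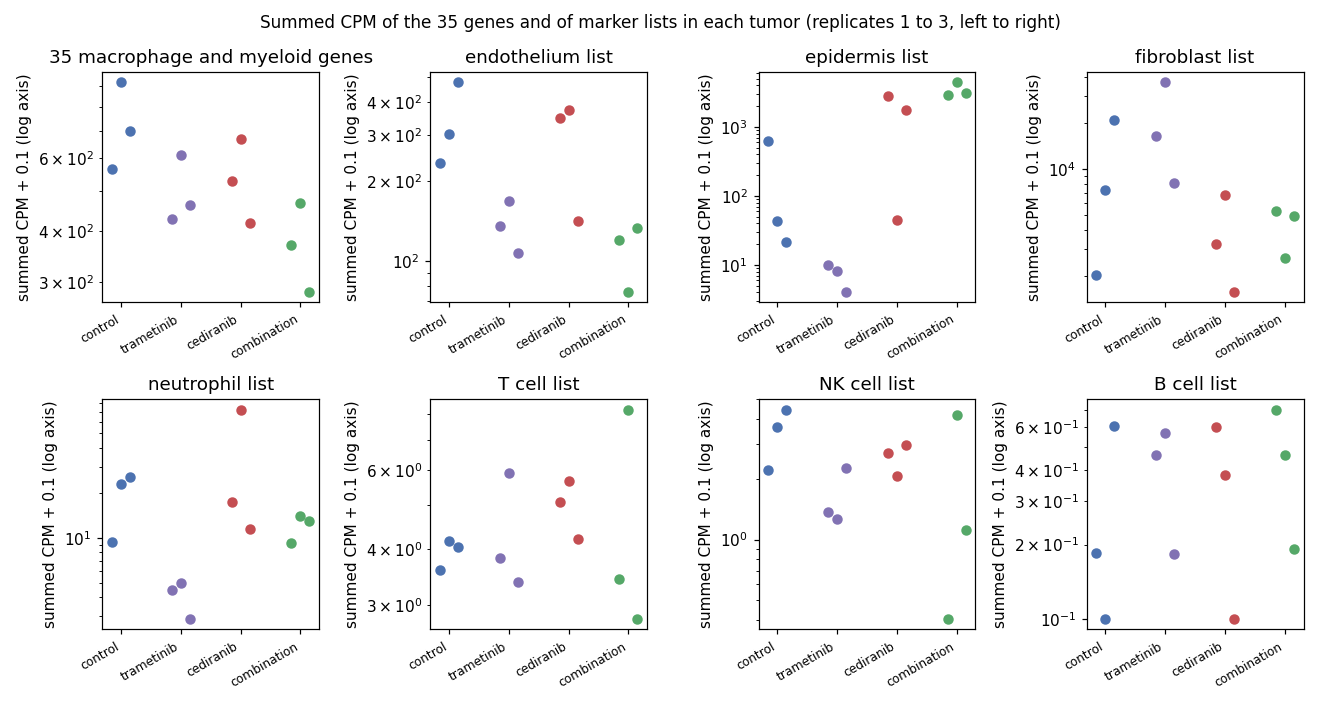
Summed CPM plus 0.1 (log axes) of the 35 genes and of 7 marker lists in each tumor, in replicate order from left to right. Combination points lie below all control points for the 35 genes (285 to 467 CPM) and for the endothelial list (76.2 to 133 CPM), and above all other points for the epidermal list (2924 to 4423 CPM).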

How the data were processed

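RNA from 12 SVR tumors, 3 in each of the 4 treatment groups, was prepared with exome capture and sequenced. The authors aligned reads to GRCm38 with STAR 2.7.1a and made raw counts per gene with featureCounts 1.6.0, after bcl2fastq 1.8.4, and the deposited counts carry no normalization. For the annotation release, the strand setting and multi-mapping reads, no source used here gives the choice made. Gene lengths are those of the deposited gene models.

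Groups were taken from the sample titles. Tested genes held 99.8% of the 9478865 to 11666094 counts per library, and TMM factors ran from 0.908 to 1.10. Counts were filtered with filterByExpr (minimum count 10, minimum total 15) and fitted with all 12 libraries in edgeR 4.0.16 (R 4.3.3) by the quasi-likelihood test. The threshold, that of the study, was an FDR of 0.05 and a log2 fold change of 1.5 or more in either direction. Standard errors were derived from the log2 fold change and its F statistic (ratio of its size to the root of F), and log2 CPM in the heatmap used a prior count of 2. Limits from a count of 3 are for counting error alone, because the reads carry no molecular identifiers. Among the libraries 0 pairs were identical. The test was tested on simulated data.

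Genes were matched by name. Results for some list genes are not reported here. Members and gene lists were chosen with earlier results of these data known. Values in every tumor are printed for Cd68, Csf1r, Ptprc and, in each group of related genes, for members that were called, or otherwise the one with the highest mean CPM. From each of 19 other lists (173 genes), up to 4 called genes with the smallest p and the gene with the highest mean CPM are named. Mrc1, Cd14 and other genes named beyond this rule were chosen after their values were seen. Overlaps and shared windows come from GENCODE M21, and promoters from RefSeq in GRCm38.p6. Alternatives were size factors, library totals alone, the DESeq2 1.42.0 Wald test, no filter, no fold minimum, a replicate block, 2 groups per fit and leaving out each library. An epidermal score in the model was chosen after seeing the data.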

Additional observations from a re-analysis of the deposited data

How the results depend on the processing

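The 27 genes were recounted under 103 alternatives, of which 78 left the number called within 1.5 times its value, and 25 did not. For most of them the number of all genes called is not given here. Whether a changed count is particular to the 27 genes therefore cannot be told from it. Without the fold minimum the number of genes called was 6 for combination against control and 1 each for trametinib against control, combination against cediranib and trametinib against cediranib. With library totals alone the number for combination was 1 against control and 0 against trametinib. The DESeq2 Wald test called 2 genes (C1qb and Cd68) for combination against trametinib. Without the filter 3 (C1qb, Cd14 and Cd68) were called there, and 1 (Fcgr1) for trametinib against control. With only the 2 groups compared in the model, combination against trametinib had 0. With the epidermal score it had 0, as had combination against control. Leaving out single libraries gave 0 (without combination replicate 3) to 4 (without control replicate 1) genes for combination against control, with 1 without control replicate 2 or 3 or combination replicate 1 or 2, and 0 for combination against trametinib each time. With the replicate number as a block, 1 gene (Cd68) was called in combination tumors compared to control, and 0 compared to trametinib. The pairing has no support in the labels. Deviations of tumors with the same number correlated between -0.22 and 0.36, with 3 of 18 pairs over 0.1, and at most 1 of 3 tumors in a comparison correlated best with its own number. Among 399 values of single genes, 356 kept their direction and side of the threshold, 29 lost a call, 1 gained one (Csf1r without control replicate 1) and 13 changed sign. For combination against control the changes of sign with the epidermal score were C1qc 0.0295, Cd84 0.19, Ctss 0.0776, Fcer1g 0.65, Lyz2 0.52, Mpeg1 0.64, Ptprc 0.16 and Spi1 0.18. With library totals alone they were Mpeg1 0.0744 and Ptprc 0.0516. Leaving out single libraries gave -0.26 to 0.28 for Mpeg1 and -0.35 to 0.0949 for Ptprc. The cause of these changes was not tested. Depth limits the 8 genes with at most 58 counts in all, and C1qc, which was at or under the limit of a count of 3 in every combination tumor. Aif1, C1qa, Cd84, Fcgr2b and Msr1 each had a combination tumor at or under that limit. Fcgr1, with 4 counts in combination replicate 3, was near it.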
